A study of Mus musculus with 24 samples.

Results

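Chemokines are small secreted proteins that steer the movement of white blood cells, and chemokine receptors are the G protein-coupled receptors on those cells that read them. The genes described here are those whose symbol begins with Ccl, Cxcl, Ccr or Cxcr and a digit, or with Cx3cl, Cx3cr, Xcl or Xcr. There are 56 such genes (39 ligands and 17 receptors) among the 24421 gene symbols counted, after 2 of the 58 matching symbols were left out. They were followed in total RNA-seq of adipose tissue from 2-month-old C57BL/6 mice in 6 groups of 4 libraries each: wild type (WT), Y665F and Y665H, each in males and in females. Y665F and Y665H replace a tyrosine in the SH2 domain of STAT5B, a transcription factor that carries cytokine and growth hormone signals to the nucleus, by phenylalanine or by histidine. The labels give neither the fat depot nor whether the mutant mice carried 1 or 2 mutant alleles, and they do not say that the 4 libraries of a group came from separate animals, so p-values measure the spread between libraries, which may be technical. A point mutation cannot be seen in gene counts, so the genotype labels were not checked here.

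In adipose tissue, resident fibroblasts, endothelial cells and macrophages make chemokines that draw in monocytes, lymphocytes and dendritic cells. Ligands with adjacent cysteines (Ccl) act mostly on Ccr receptors, and ligands with 1 residue between them (Cxcl) on Cxcr receptors. Several ligands share a receptor, so ligands are grouped below by the receptor they act on, and receptors by the cells known to carry them.

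The libraries held between 21 and 41.3 M reads assigned to genes (median 34.6 M), and the members took between 0.0368% and 0.0794% of them. At this depth a count of 0 in a library allows a level of up to between 0.0726 and 0.143 CPM (counts of a gene scaled to a common total of gene reads, 1 M, in each library), a limit that covers counting error only. The summed level of 8 adipocyte markers lay between 5375 and 17247 CPM, so the labelled tissue was present in every library. Male libraries differed in their content of another tissue: the summed level of 8 epididymis genes was 0.23 CPM in WT male 1 but 8007, 2319 and 842.5 CPM in WT males 2, 3 and 4. In the mutant males it ran from 0.502 to 1155 CPM, and in all 12 female libraries it was at most 2.16 CPM. Among females, Y665F female 3 stood apart, with 1092 CPM over 6 epithelial markers against 15.7 to 169.8 CPM in the other 11 female libraries. Female libraries also varied in 6 skeletal muscle markers. Their sum ran from 82.1 to 724.4 CPM in WT, 27.7 to 165.6 CPM in Y665F and 16.8 to 1184 CPM in Y665H females. Of these markers 3 were called higher in Y665H than in Y665F females, where 8.77% of all genes were. The part of muscle in the member values was not tested.

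Among the members, 31 (21 ligands and 10 receptors) had a mean of at least 1 CPM over the 24 libraries, 12 lay from 0.1 to 1 CPM, 8 were counted at under 0.1 CPM and 5 had no count in any library. The 5 without a count were Ccl20, Ccl21a, Ccl21b, Ccl21c and Ccl27b. Ccl21a, Ccl21b and Ccl27b have near-identical copies in the genome (at least 95% identity over 300 bases or more), as do Ccl19 and Ccl27a, so reads of these genes may have been split or dropped in counting and their levels are uncertain. The 8 genes at the floor were the neutrophil-attracting ligands Cxcl3, Cxcl5 and Cxcl15, the ligands Ccl1 and Ccl26, and the receptors Cxcr1, Cxcr2 and Ccr1l1. The neutrophil receptors Cxcr1 and Cxcr2 thus averaged under 0.1 CPM over the 24 libraries, with highest library values of 0.0989 and 0.55 CPM. The summed level of 5 neutrophil markers lay between 0.192 and 2.23 CPM, with its highest group mean, 1.22 CPM, in WT males.

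Levels of different genes were compared per kilobase of exon. On that scale the most abundant members, as the mean over all 24 libraries, were Ccl6 (37.1 CPM per kb), a macrophage chemokine that acts through Ccr1, Cxcl12 (26.4 CPM per kb), the stromal ligand of Cxcr4, and Ccl11 (22.8 CPM per kb), an eosinophil attractant made by fibroblasts. Ccl9 followed at 10.7 CPM per kb, and Ccl8 and Cxcl14 at 8.31 and 8.22 CPM per kb. Among receptors, Ccr2, the monocyte receptor for Ccl2, averaged 5.89 CPM per kb and Cxcr4 5.46 CPM per kb, and all others lay at or below 2.37 CPM per kb, the mean of Ccr10. Their order differed between groups. Cxcr4 stood above Ccr2 in WT females (5.37 against 4.19 CPM per kb), WT males and Y665H males, Ccr2 stood above Cxcr4 in both Y665F groups (9.38 against 4.29 CPM per kb in females), and in Y665H females Ccr2 (3.4 CPM per kb) was followed by Ccr10 (2.71) and Cxcr4 (2.53). These values depend on the exon model, since unused exons lower a level per length.

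**Figure D1:**
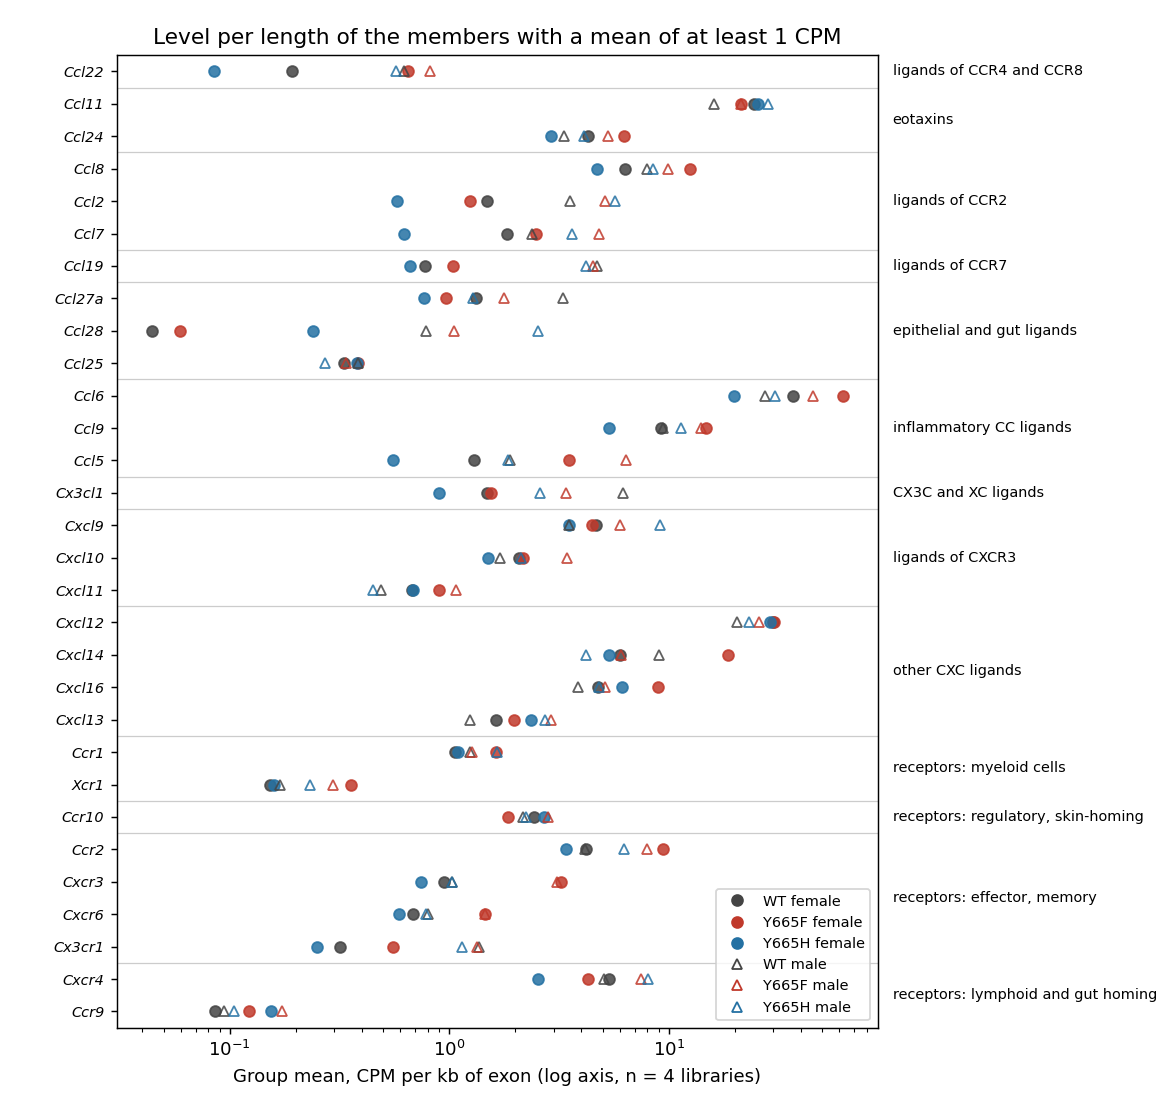
Group means of 30 of the 31 members with a mean of at least 1 CPM, in CPM per kb of exon on a log axis, arranged by role. Filled circles are females and open triangles are males (n = 4 libraries each). Ccl6, Cxcl12 and Ccl11 have the 3 highest means in every group, and Ccl28 and Ccl5 have the widest ranges between group means.

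The question asked of each mutant was which of these genes differ from WT within a sex. In females, Y665F tissue had higher levels of 7 members, among them the lymphocyte and monocyte receptors Cxcr3, Ccr4, Cxcr6 and Ccr2 and the ligands Ccl5 and Ccl17. Ccl27a was lower. The summed level of 14 T and NK cell markers was higher in the same libraries (39.3 to 58.2 CPM against 12.2 to 17.7 CPM in WT females). In bulk tissue more cells of a type and more RNA per cell cannot be told apart, nor can fewer cells and less RNA per cell. A gene is called here where edgeR's quasi-likelihood test gave a Benjamini-Hochberg adjusted p under 0.05 over all genes, and calls of DESeq2's Wald test are named as such. The 8 calls were 22.2% of the 36 members with enough counts to be tested, against 3.33% of all 15642 genes tested. By direction, all genes were called higher in 2.31% and lower in 1.02%. The members' median log2 fold change was 0.47 and that of all genes 0.02. When library totals replaced the TMM scaling, which moved the median of all genes to 0.15, 9 members were called higher and 0 lower. By sign, 30 of the 36 tested members were then higher and 6 lower. The share of all genes called with library totals is not given here, so the 9 cannot be set against it. In 13 of the 36 tested members every Y665F female library was above every WT female library, and in 2 every one was below in CPM, where all genes gave 19.9% and 2.96%. Cxcr3 and Ccr4 were called whichever library was left out. With 1 library left out, 2 to 4 of the 8 calls remained, except that 7 did without Y665F female 3, the library rich in epithelial RNA. DESeq2 called all 8 and 5 further members, 31% of the 42 it tested against 12.1% of all genes.

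Y665H females differed from WT females in 4 of 35 tested members (11.4%, against 3.34% of all 15469 genes). Ccl28 was higher, where 1.53% of all genes were called higher. Ccl27a, Ccl5 and Cxcl9 were lower, where 1.8% of all genes were called lower. The median log2 fold change of the members was -0.29 and that of all genes -0.00. Groups did not overlap in 1 member upward and 7 downward, where all genes gave 6.45% and 6.81%. DESeq2 called 11 of 30 members (36.7%), against 12.2% of all genes. None of the 4 calls held in the fit of all 24 libraries together, or when WT female 1 or 4, or Y665H female 1, 3 or 4 was left out.

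The most members were called between the 2 mutants. Y665H females were lower than Y665F females in 13 members and higher in 2, together 40.5% of the 37 tested members against 17.4% of all 15493 genes. All genes were called lower in 8.59% and higher in 8.77%. The members' median log2 fold change was -0.96 and that of all genes -0.03. Ccl5, Cxcr3, Ccr2, Ccl22, Ccl17, Ccl28, Ccl7, Ccr7 and Ccl6 were among the 10 smallest p-values. Ccr4, Ccl9, Cxcr6, Xcr1 and Ccr10 were called as well. The groups did not overlap in 17 members downward and 2 upward, where all genes gave 21.5% and 6.62%. DESeq2 called 19 of 41 members (46.3%), against 23.6% of all genes. Both comparisons with Y665F use the same 4 Y665F female libraries, so they are not independent.

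In males, no member passed edgeR's test against WT in either mutant. For Y665F, edgeR called 0 of 41 tested members, and 0% of all 16240 genes. An unadjusted p under 0.05 was found for 17 members, all higher, where 8.43% of all genes were higher and 8.64% lower at that threshold. DESeq2 called 9 of 42 members (21.4%), all higher, where it called 3.77% of all genes higher and 3.26% lower. The smallest edgeR p-values were those of Ccl5, Ccr7 (1.34 ± 0.29, adjusted p = 0.138) and Cxcr3, each of which DESeq2 called. In 11 members every Y665F male library was above every WT male library and in 0 below, where all genes gave 5.59% and 3.26%. For Y665H, edgeR called 0 of 38 members and 0% of all 16406 genes. At an unadjusted p under 0.05 there were 4 members, near the 11.4% of all genes, and DESeq2 called 0 members and 0.726% of all genes. The smallest p-values were those of Ccl11 (0.82 ± 0.29), Ccl28 (1.69 ± 0.63) and Cxcl9 (1.35 ± 0.54), each with an adjusted p of 0.402. The groups did not overlap in 0 members upward and 1 (Ccl25) downward, where all genes gave 2.43% and 1.18%. Between the mutants, Ccr4 was lower in Y665H than in Y665F males, 1 of 40 tested members (2.5%) against 1.03% of all 15986 genes. It was followed by Cxcr3 (-1.66 ± 0.34, adjusted p = 0.0649) and Cxcl11 (-1.30 ± 0.30, adjusted p = 0.0812), which did not pass, and 5 members (Ccl5, Ccl25, Ccr4, Cxcl11 and Cxcr3) did not overlap downward and 0 upward, where all genes gave 6.17% and 6.29%. DESeq2 called 3 of 35 members (8.57%) between the male mutants, against 7.06% of all genes. WT males spread widely: the 3 WT males with epididymis genes also carried 281.7 to 1028 CPM of epithelial markers against 35.8 CPM in WT male 1.

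**Figure D2:**
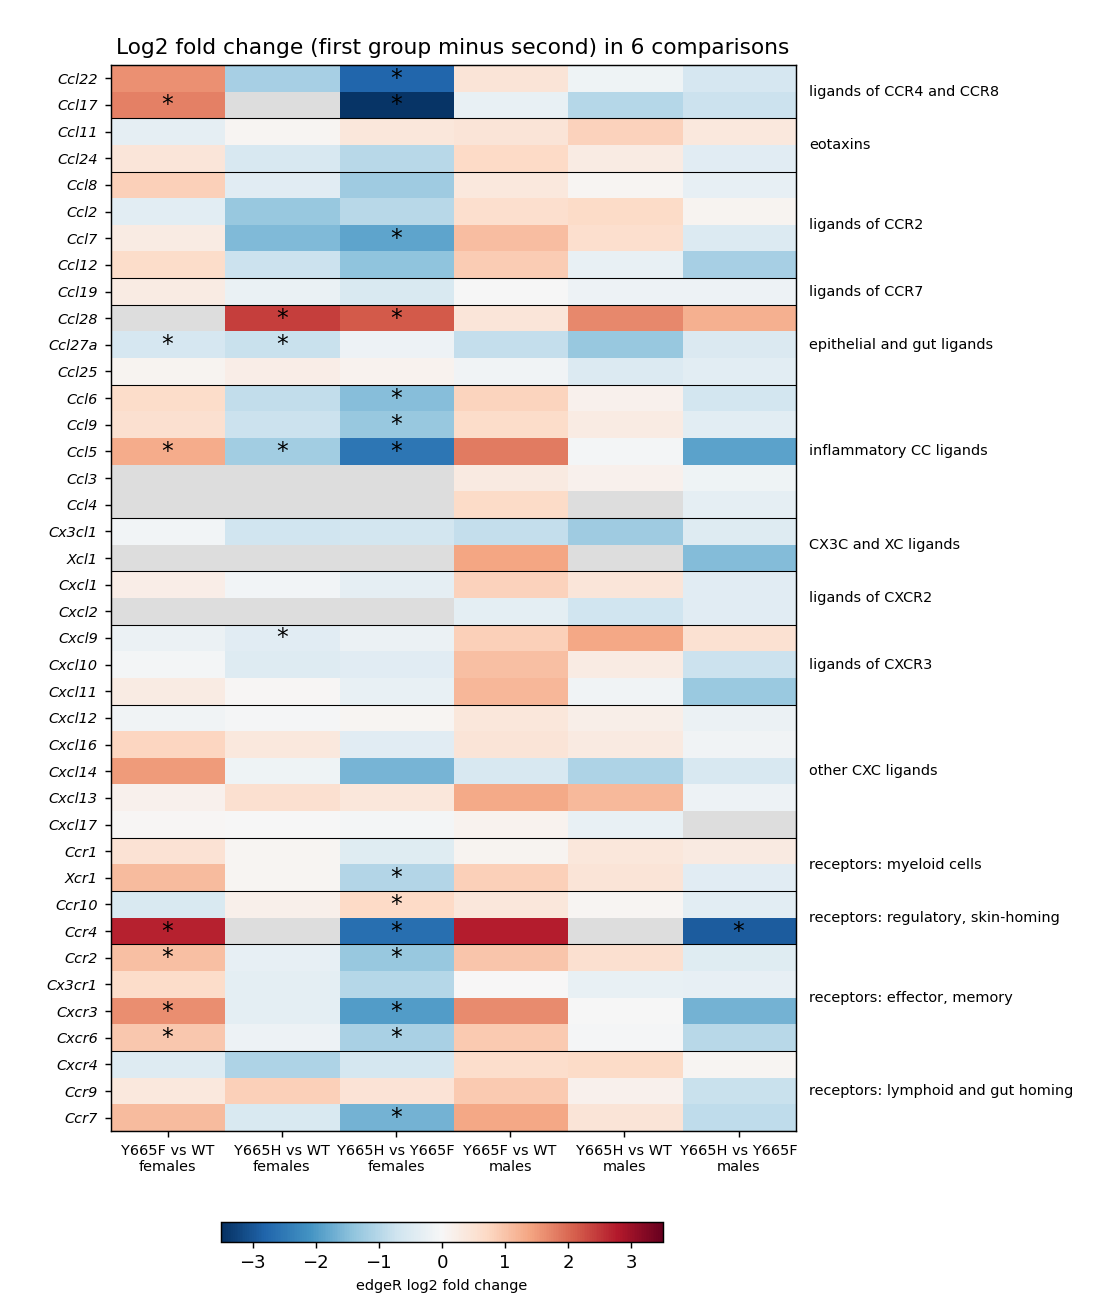
Log2 fold changes (edgeR, colour scale) of members tested in at least 1 of 6 comparisons, all but 1 of them drawn, arranged by role, with asterisks at an adjusted p under 0.05 over all genes and grey where a gene had too few counts to be tested. Asterisks mark 7, 4 and 14 of the members drawn in the 3 female comparisons, 0 in each male comparison with WT and 1 (Ccr4) between the male mutants.

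The receptors of effector and memory lymphocytes and of monocytes were the group with the most calls. Cxcr3, Cxcr6 and Ccr2 rose in Y665F females, and the same 3 were lower in Y665H than in Y665F females. Cxcr3, at chrX:101731535-101734269 (mm10, minus strand), is the receptor of activated T cells for Cxcl9, Cxcl10 and Cxcl11. It stood at 1.57, 1.97, 1.42 and 1.62 CPM in the 4 WT females, at 6.78, 5.06, 4.94 and 5.5 CPM in the Y665F females and at 1.34, 1.76, 1.09 and 0.966 CPM in the Y665H females. All Y665F libraries were above all others, and Y665H overlapped WT. The log2 fold change was 1.62 ± 0.17 (SE, adjusted p = 0.00978) for Y665F against WT and -1.96 ± 0.23 (adjusted p = 0.00196) for Y665H against Y665F. In males Cxcr3 was 1.7, 0.991, 2.79 and 1.62 CPM in WT, 6.26, 5.22, 6.29 and 3.75 CPM in Y665F and 2.04, 1.03, 1.21 and 2.85 CPM in Y665H. The Y665F males were again above all others, but the log2 fold change against WT (1.65 ± 0.36, adjusted p = 0.14) did not pass the test.

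Ccr2 lies at chr9:124101950-124113557 (plus strand). Ccr2, carried by monocytes and memory T cells, measured 30.4, 18.7, 34.6 and 29.6 CPM in WT females, 79.9, 64.7, 44.6 and 64.5 CPM in Y665F females and 19.4, 24.9, 23.8 and 23.9 CPM in Y665H females. Its log2 fold changes were 1.04 ± 0.23 (adjusted p = 0.0467) for Y665F against WT, and -1.33 ± 0.17 (adjusted p = 0.00246) for Y665H against Y665F. The Y665F females lay above all WT and Y665H females. Cxcr6, the receptor of tissue-resident T cells for Cxcl16, rose from 1.31 ± 0.218 to 2.8 ± 0.332 CPM (SD, n = 4) from WT to Y665F females, a log2 fold change of 0.95 ± 0.18 (adjusted p = 0.0323).

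In males, Y665F had the highest mean of Cxcr3, Ccr2 and Cxcr6, without an edgeR call against WT. DESeq2 called Cxcr3 and Cxcr6 there. Ccr2 averaged 28.2, 53.9 and 42.1 CPM in WT, Y665F and Y665H males, and its WT and Y665F male libraries overlapped. Cx3cr1, the fractalkine receptor of monocytes and macrophages, was called by edgeR in no comparison, and DESeq2 called it higher in WT males than in WT females (adjusted p = 0.0053). It reached 13.6 CPM in WT male 2, the library with the most epididymis RNA, against 3.19 to 4.49 CPM in the other WT males.

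**Figure D3:**
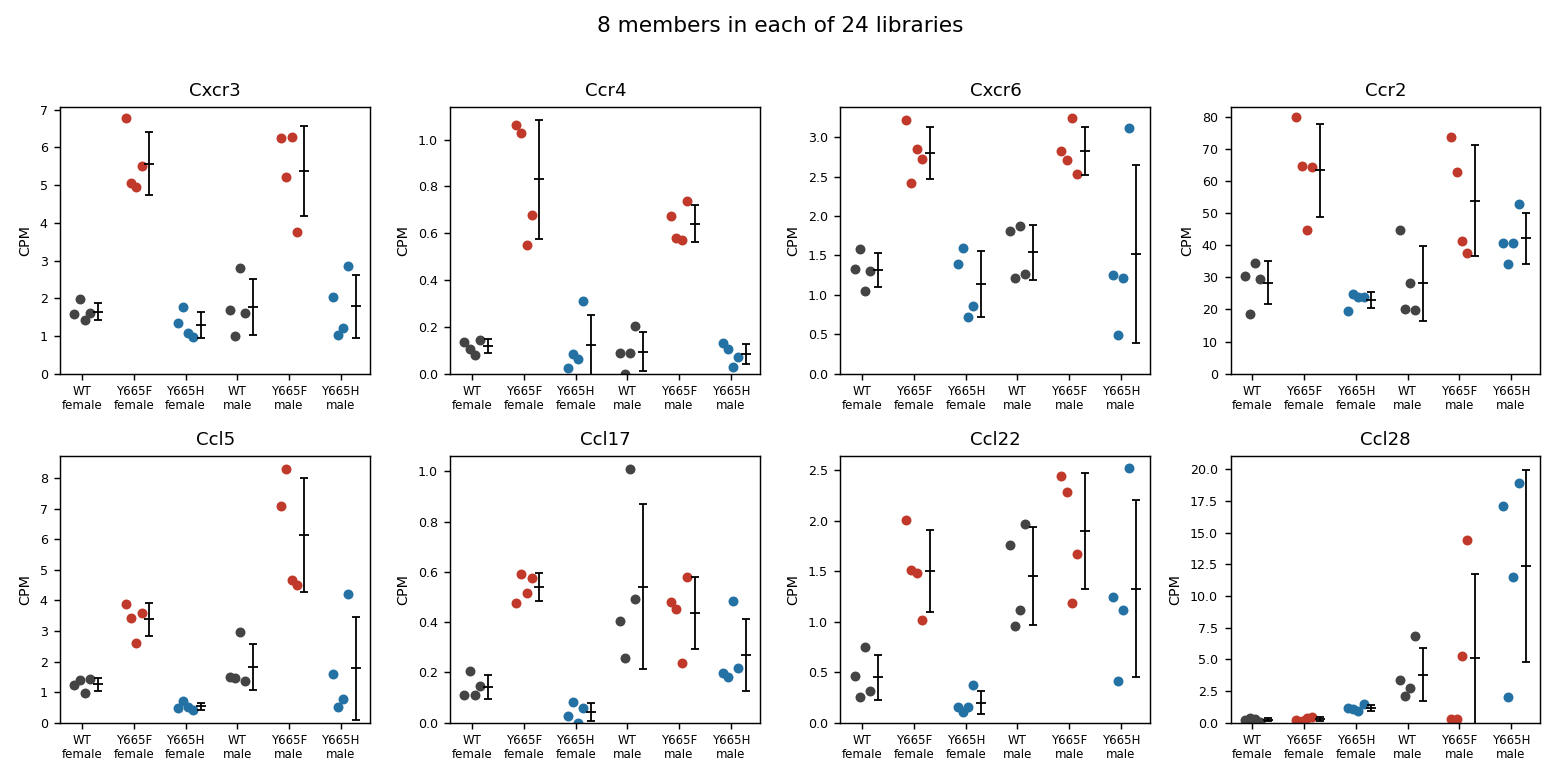
Levels in CPM of 8 members in each of the 24 libraries (points), with the mean and SD of each group of 4 beside them. The Y665F females (red) lie above all WT and Y665H females for Cxcr3, Ccr4, Cxcr6, Ccr2, Ccl5, Ccl17 and Ccl22, and Ccl28 is higher in Y665H females and varies widely in males.

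Of the receptors of regulatory and skin-homing lymphocytes, Ccr4 had the largest log2 fold change among the 8 calls in Y665F females. Ccr4 (chr9:114490316-114504916, minus strand) is the receptor of helper and regulatory T cells for Ccl17 and Ccl22. It was scarce: 0.136, 0.104, 0.0806 and 0.145 CPM in WT females (17 reads in all), 1.06, 1.03, 0.549 and 0.679 CPM in Y665F females (100 reads) and 0.0258, 0.0823, 0.0622 and 0.312 CPM in Y665H females (17 reads). Every Y665F library was above every other female library. The log2 fold change of Y665F against WT was 2.68 ± 0.34 (adjusted p = 0.0118). In males it read 0.0864, 0, 0.0863 and 0.203 CPM in WT, 0.674, 0.578, 0.572 and 0.738 CPM in Y665F, and 0.132, 0.103, 0.0302 and 0.0726 CPM in Y665H. The log2 fold change of Y665H against Y665F males was -2.92 ± 0.41 (adjusted p = 0.0219), the only edgeR call among members in a male comparison of genotypes. DESeq2 gave no adjusted p for Ccr4 there and called Ccl5, Cxcl11 and Cxcr3 lower, and it called Ccr4 in Y665F against WT males (adjusted p = 0.00424). That of Y665F against WT males was 2.75 ± 0.67 (adjusted p = 0.163). The call between the male mutants was lost when any of 6 of the 8 libraries was left out (all but Y665F male 4 and Y665H male 2). Ccr8, a receptor of regulatory T cells, had 98 reads over all libraries, too few for edgeR's test. DESeq2 did not call Ccr8 in any comparison. Ccr10, the receptor for Ccl27a and Ccl28, was 3.19 ± 0.43 CPM in Y665F females, 4.68 ± 0.965 in Y665H females and 4.2 ± 0.16 in WT females (SD, n = 4). DESeq2 called Ccr10 lower in Y665F than in WT females (adjusted p = 0.0139).

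Ccr7 leads T cells and mature dendritic cells to lymph nodes. It stood at 0.624, 0.337, 0.242 and 0.694 CPM in WT females, 1.39, 1.12, 0.721 and 1.26 CPM in Y665F females and 0.284, 0.302, 0.187 and 0.511 CPM in Y665H females. The difference between the mutants was -1.65 ± 0.34 on the log2 scale (adjusted p = 0.0139). Against WT, the Y665F females were higher by 1.11 ± 0.37, which did not pass (adjusted p = 0.118), although the libraries did not overlap. Cxcr4, the receptor for Cxcl12, was lower in each Y665H female (3.8, 2.31, 3.73 and 8.46 CPM) than in each WT female (9.03, 11.1, 9.08 and 9.63 CPM), with a log2 fold change of -1.08 ± 0.33. This did not pass edgeR's test (adjusted p = 0.105), but passed without Y665H female 4 and passed DESeq2's (adjusted p = 0.0129). Y665H female 4 had the highest Cxcr4 and Ccr9 of its group, and also 32.1 CPM of 14 T and NK cell markers against 8.33 to 13.2 CPM in the other 3 Y665H females. The part of those cells in the Cxcr4 and Ccr9 values was not tested. Xcr1, which marks cross-presenting dendritic cells, averaged 0.677, 1.59 and 0.714 CPM in WT, Y665F and Y665H females. DESeq2 called Xcr1 higher in Y665F than in WT females (adjusted p = 0.0127). Ccr1, a receptor of monocytes and macrophages, averaged 3, 4.66 and 3.13 CPM in WT, Y665F and Y665H females. Ccr6, carried by helper T cells and B cells, had a group mean of at most 0.367 CPM, in Y665F males.

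Of the 5 inflammatory ligands Ccl3, Ccl4, Ccl5, Ccl6 and Ccl9, 1 (Ccl5) was called in Y665F females. Ccl5, also called RANTES and made by T and NK cells (chr11:83525778-83530518, minus strand), was the only member called in all 3 female comparisons. It measured 1.22, 1.4, 0.968 and 1.42 CPM in WT females, 3.88, 3.43, 2.61 and 3.6 CPM in Y665F females and 0.491, 0.714, 0.497 and 0.426 CPM in Y665H females. The 3 groups did not overlap. Its log2 fold changes were 1.30 ± 0.20 for Y665F against WT (adjusted p = 0.0205), -1.21 ± 0.23 for Y665H against WT (adjusted p = 0.0341) and -2.52 ± 0.23 for Y665H against Y665F (adjusted p = 0.00148). In males Ccl5 was 1.5, 1.47, 2.96 and 1.36 CPM in WT, 7.09, 8.31, 4.67 and 4.49 CPM in Y665F and 1.58, 0.514, 0.786 and 4.21 CPM in Y665H. The Y665F males were above all others, with a log2 fold change of 1.81 ± 0.36 against WT (adjusted p = 0.123), where DESeq2 called Ccl5 (adjusted p = 0.000482).

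Ccl6 and Ccl9, made by macrophages, lie close together on chromosome 11. Ccl6 measured 82.6, 52.5, 46.5 and 83.9 CPM in WT females, 152.7, 128.4, 64 and 101.1 CPM in Y665F females and 42.3, 44.1, 35.6 and 21.2 CPM in Y665H females. It was lower in Y665H than in Y665F females by a log2 fold change of -1.49 ± 0.32 (adjusted p = 0.0167), and Ccl9 averaged 45 CPM in Y665F and 16.2 CPM in Y665H females. Against WT, edgeR called neither, and DESeq2 called both lower in Y665H females (adjusted p = 0.0153 for Ccl6 and 0.0333 for Ccl9). Ccl3 and Ccl4, made by activated macrophages and T cells, had group means of at most 0.518 and 0.371 CPM and were too scarce for edgeR's test in females. DESeq2 called neither in any comparison.

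Among the ligands of CCR2, which draw in monocytes, Ccl7 was lower in Y665H females (0.594, 0.686, 0.342 and 0.369 CPM) than in Y665F females (1.98, 2.72, 1.89 and 1.36 CPM), with a log2 fold change of -1.84 ± 0.32 (adjusted p = 0.00751). DESeq2 also called Ccl7 lower in Y665H than in WT females (adjusted p = 0.0242) and higher in Y665F than in WT males (adjusted p = 0.0251). EdgeR called Ccl2, Ccl8 and Ccl12 in no comparison, while DESeq2 called Ccl2 lower in Y665H than in WT females (adjusted p = 0.0457) and Ccl8 lower in Y665H than in Y665F females (adjusted p = 0.0202). Ccl8 and Ccl12 had their highest group means in Y665F, at 6.37 ± 1.27 CPM in females and 1.3 ± 0.329 CPM in males (SD, n = 4). Ccl2, the main monocyte attractant, averaged 1.68, 1.42 and 0.658 CPM in WT, Y665F and Y665H females and 4.05, 5.82 and 6.46 CPM in the corresponding males. Neither tool called any of these 4 ligands in Y665F against WT females, where their receptor Ccr2 was.

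Ccl17 (chr8:94810453-94812036) and Ccl22 (chr8:94745590-94751699), both on the plus strand, are the ligands of CCR4 made by dendritic cells and macrophages. Ccl17 measured 0.109, 0.207, 0.108 and 0.145 CPM in WT females (21 reads in all), 0.476, 0.591, 0.515 and 0.577 CPM in Y665F females (65 reads) and 0.0258, 0.0823, 0 and 0.0568 CPM in Y665H females (6 reads). The 3 groups did not overlap. Ccl17 rose by 1.77 ± 0.29 on the log2 scale in Y665F females (adjusted p = 0.0236) and differed by -3.44 ± 0.49 between the mutants (adjusted p = 0.00361). In males the groups overlapped, with 0.403, 0.256, 1.01 and 0.492 CPM in WT, 0.481, 0.452, 0.238 and 0.578 CPM in Y665F and 0.198, 0.18, 0.484 and 0.218 CPM in Y665H. Ccl22 measured 0.461, 0.259, 0.753 and 0.318 CPM in WT females, 2.01, 1.51, 1.48 and 1.02 CPM in Y665F females and 0.155, 0.11, 0.155 and 0.369 CPM in Y665H females. Its difference between the mutants was -2.77 ± 0.39 (adjusted p = 0.00324), and that of Y665F against WT was 1.61 ± 0.36 (adjusted p = 0.0512), just short of passing, where DESeq2 called it (adjusted p = 0.00354).

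STAT dimers bind the palindrome TTCNNNGAA, and RefSeq promoter windows (GRCm38.p6, from 250 bases before to 50 after each start) were searched for it. The palindrome reads the same on both strands. Of the 56 members 41 had a window, and 4 of these (9.76%) held the motif: Ccl17, Cxcl14, Ccr6 and Ccr1l1. Among all 27025 genes with a window the share was 9.55%, so the members were close to the background. The 250 bases before the start are given for Ccl17 and Ccr4, a ligand and its receptor that both rose in Y665F females, for Cxcr6, a second receptor that rose, and for Ccl28, which rose in Y665H females. Capitals mark the motif, which starts 99 bases before the Ccl17 start. The other 3 sequences do not hold these letters. They are Ccl17 at chr8:94810203-94810452 (plus strand), Ccr4 at chr9:114496545-114496794 (minus strand), Cxcr6 at chr9:123806227-123806476 (plus strand) and Ccl28 at chr13:119623569-119623818 (plus strand), each written 5′ to 3′. RefSeq places the Ccr4 start inside the longer gene model whose coordinates are given above.
Ccl17: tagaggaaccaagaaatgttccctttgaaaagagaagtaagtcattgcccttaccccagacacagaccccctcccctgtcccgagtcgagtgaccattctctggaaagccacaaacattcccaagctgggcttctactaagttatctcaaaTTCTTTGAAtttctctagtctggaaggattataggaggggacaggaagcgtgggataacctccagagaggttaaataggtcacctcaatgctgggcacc
Ccr4: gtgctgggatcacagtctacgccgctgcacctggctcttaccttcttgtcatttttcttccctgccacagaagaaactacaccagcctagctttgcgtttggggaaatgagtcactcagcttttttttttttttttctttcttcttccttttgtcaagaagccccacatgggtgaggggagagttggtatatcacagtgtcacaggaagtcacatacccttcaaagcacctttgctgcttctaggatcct
Cxcr6: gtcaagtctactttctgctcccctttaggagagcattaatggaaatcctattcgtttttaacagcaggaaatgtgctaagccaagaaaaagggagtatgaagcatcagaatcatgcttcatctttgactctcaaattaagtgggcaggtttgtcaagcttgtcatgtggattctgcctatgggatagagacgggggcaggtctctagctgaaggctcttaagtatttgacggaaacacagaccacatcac
Ccl28: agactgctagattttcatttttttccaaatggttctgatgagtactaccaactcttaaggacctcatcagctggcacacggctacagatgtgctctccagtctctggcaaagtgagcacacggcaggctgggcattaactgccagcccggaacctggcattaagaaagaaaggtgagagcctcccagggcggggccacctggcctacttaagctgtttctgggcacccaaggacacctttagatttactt

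Ccl28 attracts plasma cells and T cells to mucosal surfaces through Ccr10. It lies at chr13:119623819-119654359 (plus strand). It was near the floor in WT females (0.19, 0.337, 0.269 and 0.0578 CPM) and in Y665F females (0.22, 0.148, 0.378 and 0.407 CPM), and higher in Y665H females (1.16, 1.04, 0.933 and 1.51 CPM). Every Y665H female was above every other female. The log2 fold change of Y665H females was 2.43 ± 0.40 against WT (adjusted p = 0.0236) and 2.16 ± 0.33 against Y665F (adjusted p = 0.00441). Male libraries ran from 0.321 to 18.9 CPM. WT males read 3.4, 2.14, 2.76 and 6.83 CPM, Y665F males 0.321, 0.327, 5.24 and 14.4 CPM, and Y665H males 17.1, 2.01, 11.5 and 18.9 CPM. No genotype difference passed in males (Y665H against WT 1.69 ± 0.63, adjusted p = 0.402). The summed epithelial markers ran from 15.7 to 102.7 CPM in WT, from 29.2 to 1092 CPM in Y665F and from 20 to 103.2 CPM in Y665H females, and their part in the Ccl28 values was not tested.

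Ccl27a, the skin chemokine that also acts through Ccr10, was lower in both mutants in females. It measured 3.34, 3.24, 3.09 and 2.92 CPM in WT, 2.2, 2.31, 2.27 and 2.41 CPM in Y665F and 1.68, 2.11, 1.77 and 1.73 CPM in Y665H females. The 3 groups did not overlap, with log2 fold changes of -0.59 ± 0.13 (adjusted p = 0.0463) and -0.77 ± 0.14 (adjusted p = 0.031) against the same 4 WT libraries. The first of these calls was lost in 12 of 14 alternative settings, among them the removal of any 1 library. In males Ccl27a reached 17.9 CPM in WT male 4 against 2.3 to 6.23 CPM in the other WT males. Ccl25, the thymus and gut ligand of CCR9, lay between 1.84 and 3.7 CPM in all libraries and was called by neither tool.

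Of the 3 interferon-induced ligands of CXCR3, none was called by either tool in Y665F against WT females. Cxcl9 measured 13.7, 15, 13.8 and 13.9 CPM in WT, 11.6, 15.8, 9.82 and 16.5 CPM in Y665F and 10.8, 10.3, 10.6 and 10.8 CPM in Y665H females. The Y665H females lay below all WT females (log2 fold change -0.39 ± 0.09, adjusted p = 0.0469), and the Y665F females overlapped both. EdgeR called Cxcl10 and Cxcl11 in no comparison, while DESeq2 called Cxcl10 higher in Y665F than in WT males (adjusted p = 0.0242) and Cxcl11 lower in Y665H than in Y665F males (adjusted p = 0.00382). In Y665F females their log2 fold changes against WT were -0.06 ± 0.18 and 0.29 ± 0.23, beside 1.62 for Cxcr3 (the difference between genes was not tested). Cxcl11 has 41.7% of its exon bases in common with another gene model, so its reads could be shared if strand was not used in counting. The same limit holds for Ccr9 (21.5%), Xcl1 (18.7%) and Cxcl16 (18.3%). For Ccr9 an overlapping gene also lies on the same strand.

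Cxcl12, which holds Cxcr4-bearing cells in tissues, was the member with the most reads. It was 244.4 ± 15.4 CPM in WT, 246.9 ± 52.8 in Y665F and 235.4 ± 46.8 in Y665H females, and 166.7 ± 34.5, 211.3 ± 14.1 and 190.3 ± 28 CPM in the corresponding males (SD, n = 4). No genotype comparison of Cxcl12 passed with either tool. Cxcl16, the ligand of CXCR6, did not overlap between Y665F and WT in females, although the nearest libraries both round to 18.4 CPM, and was not called by edgeR (log2 fold change 0.76 ± 0.24, adjusted p = 0.106). DESeq2 called it higher in Y665F than in WT in females (adjusted p = 0.0298) and in males (adjusted p = 8.3e-05). Cxcl14, made by epithelial and stromal cells, reached 85.2 CPM in Y665F female 3, the library with 1092 CPM of epithelial markers, against 12.7 to 21.4 CPM in the other Y665F females. EdgeR did not call Cxcl14, while DESeq2 called it lower in Y665H than in Y665F females (adjusted p = 0.00945). Cxcl13, the attractant of B cells, was called by neither tool and ranged from 0.48 to 9.32 CPM, and Cxcl17, a mucosal chemokine, stayed between 0.16 and 0.667 CPM. Cx3cl1, the membrane-bound ligand of Cx3cr1, read 61.7 CPM in WT male 2 against 4.98 to 15.8 CPM in the other WT males. EdgeR did not call Cx3cl1. DESeq2 called it lower in Y665H than in WT females (adjusted p = 0.0248) and higher in WT males than in WT females (adjusted p = 0.0212). The eosinophil attractants Ccl11 and Ccl24 were called by edgeR in no comparison. DESeq2 called Ccl24 lower in Y665H than in WT females (adjusted p = 0.017) and than in Y665F females (adjusted p = 0.0212), and both lower in WT males than in WT females. Ccl11 had group means from 17.4 CPM in WT males to 30.6 CPM in Y665H males, and Ccl24 from 3.75 CPM in Y665H females to 8.14 CPM in Y665F females. Xcl1, the T and NK cell ligand of Xcr1, and the neutrophil attractants Cxcl1 and Cxcl2 stayed at group means of at most 0.512, 1.4 and 0.467 CPM, with no edgeR call. Xcl1 and Cxcl2 had too few counts for edgeR's test in females. DESeq2 called Xcl1 higher in Y665F than in WT females (adjusted p = 0.0279) and lower in Y665H than in Y665F females (adjusted p = 0.00419), and Cxcl2 higher in WT males than in WT females (adjusted p = 0.0296).

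Sex was compared in WT and as a difference between the effects of each mutation. WT males were higher than WT females in Ccl28 (log2 fold change 3.95 ± 0.56, adjusted p = 0.00797), Ccl19 (2.46 ± 0.45, adjusted p = 0.0175) and Ccl22 (1.54 ± 0.40, adjusted p = 0.0422), and lower in Cxcl12 (-0.70 ± 0.17, adjusted p = 0.0328). Ccl19, the lymph node ligand of CCR7, read 5.64, 1.28, 4.69 and 4.74 CPM in WT males and 0.841, 0.7, 0.538 and 0.607 CPM in WT females. The groups did not overlap, and the lowest male was WT male 2. These 4 calls were 11.4% of 35 tested members, under the 13.1% of all 15865 genes (7.15% higher and 5.95% lower). Of the 4, Ccl28 was called whichever WT library was left out, and 11 members were called without WT male 1. The share of all genes called without WT male 1 is not given here, so the 11 cannot be set against it. DESeq2 called 11 of 43 members (25.6%), near its 26% of all genes. Markers of other cell types moved with the same contrast. In WT males 2 of 6 epithelial markers were called higher (Epcam and Krt14), and 5 of 6 fibroblast and progenitor markers (Col1a1, Col3a1, Dpt, Dcn and Pi16) and 5 of 6 skeletal muscle markers were called lower. The fibroblast and progenitor sum was 3247 to 4997 CPM in WT males and 6138 to 11610 CPM in WT females, beside the lower level of the stromal ligand Cxcl12 in males. Of 8 adipocyte markers none was called and all 8 were lower in sign. WT male 1, with 0.23 CPM of epididymis genes and 35.8 CPM of epithelial markers, read 3.4 CPM of Ccl28 and 5.64 CPM of Ccl19. The part of these tissues and cells in the sex differences was not tested.

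Whether a mutation acted differently in males and females was tested as an interaction, which no member passed with edgeR. For Y665F, edgeR called 0 of 42 tested members and 0% of all 16732 genes. At an unadjusted p under 0.05 there were 7 members, a smaller share than the 21.8% of all genes, and DESeq2 called 1 (Cxcl10) of 39 (2.56%), against 7.28% of all genes. The smallest p-values were those of Ccl17, whose effect on the log2 scale was -2.02 ± 0.57 in males minus females (adjusted p = 0.131), Cxcl10 (1.11 ± 0.36, adjusted p = 0.142) and Ccr10 (0.94 ± 0.35, adjusted p = 0.162). For Y665H, edgeR called 0 of 38 members and 0.0119% of all 16827 genes. At an unadjusted p under 0.05 there were 9 members, where all genes gave 18.3%, and DESeq2 called 2 (Ccl7 and Cxcr4) of 34 (5.88%), against 4.56% of all genes. Its smallest p-values were those of Cxcr4 (1.76 ± 0.52, adjusted p = 0.153), Ccl7 (2.14 ± 0.64, adjusted p = 0.154) and Ccl2 (2.00 ± 0.64, adjusted p = 0.168). Without WT male 1, the WT male free of epididymis genes, edgeR called 2 members (Ccl17 and Cxcl9) for Y665F and 6 for Y665H (Ccl2, Ccl7, Ccl11, Ccr2, Cxcl9 and Cxcr4). The shares of all genes called without that library are not given here, so these counts cannot be set against them.

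The machinery that carries the receptors' signal was read from 22 tested genes for G proteins, kinases, arrestins and the actin regulators of cell movement. In Y665F females 4 were higher than in WT and 0 lower, where 2.31% and 1.02% of all genes were: Pik3cd, the leukocyte PI 3-kinase subunit, Dock2 and Prex1, which activate Rac, and Coro1a, an actin-binding protein. Pik3cd rose from 27.2 ± 3.93 to 51.6 ± 6.8 CPM (SD, n = 4) and Dock2 from 46.1 ± 6.39 to 96.1 ± 20 CPM. In Y665H against Y665F females 12 were lower and 1 higher, where 8.59% and 8.77% of all genes were. In Y665H against WT females 2 were lower (Dock2 and Elmo1), where 1.8% of all genes were. In males none passed against WT, and 4 were lower in Y665H than in Y665F (Pik3cd, Prex1, Pik3r5 and Dock2), where 1.03% of all genes were called in either direction. Among 12 atypical receptors and chemoattractants outside the symbol rule, Rarres2, which encodes chemerin, was lower in Y665H females than in WT (34.6 ± 3.91 against 63.7 ± 10.2 CPM) and than in Y665F females, and no other was called in a genotype comparison. Among 11 proteases and proteoglycans that cut or display chemokines, none passed against WT, Sdc4 and Mmp12 were lower in Y665H than in Y665F females and Mmp9 in Y665H than in Y665F males.

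Markers of the cells that carry these receptors moved with the same groups. The summed level of 14 T and NK cell markers was 12.2 to 17.7 CPM in WT females, 39.3 to 58.2 CPM in Y665F females and 8.33 to 32.1 CPM in Y665H females, and 11 of the 14 were called higher in Y665F than in WT females, Cd4 and Cd8a among them, where 2.31% of all genes were called higher. In males the sums were 17.4 to 158.8 CPM in WT, 49.1 to 91.6 CPM in Y665F and 10.8 to 32.6 CPM in Y665H. The top WT value belongs to WT male 2, where the NK gene Klrb1c alone read 117.2 CPM against 0.748 to 9.44 CPM in the other WT males. Dendritic cell markers summed to 32 to 40.4 CPM in WT, 48.2 to 73.3 CPM in Y665F and 29.9 to 35.6 CPM in Y665H females, B cell markers to 7.96 to 13.1, 20.2 to 30.9 and 7.74 to 11.9 CPM, and macrophage markers to 1023 to 1417, 1420 to 2259 and 753.6 to 1093 CPM. No gene of these 4 lists was at 0 throughout a group. Against WT males, 0 of the 14 T and NK cell markers were called in Y665F males, and in 12 of them every Y665F library was above every WT library, where 5.59% of all genes were. In Y665F against WT females 2 of 6 dendritic cell markers (Flt3 and Itgax), 2 of 8 B cell markers (Cd79b and Pax5) and 0 of 12 macrophage markers were called, all higher. In Y665H against WT females Nkg7 and Gzma of the T and NK cell list and Itgax and Batf3 of the dendritic cell list were called lower. There 1.8% of all genes were called lower. By sign, 8 of the 14 T and NK cell markers were higher and 6 lower, and 1 of the 6 dendritic cell markers was higher and 5 lower. In Y665H against Y665F females 10 of 14 T and NK cell, 6 of 8 B cell, 4 of 6 dendritic cell and 6 of 12 macrophage markers were called lower. None of these 4 lists had a marker called higher there, and 8.59% of all genes were called lower. The part of cell content in the differences of the chemokine and receptor genes was not tested.

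**Figure D4:**
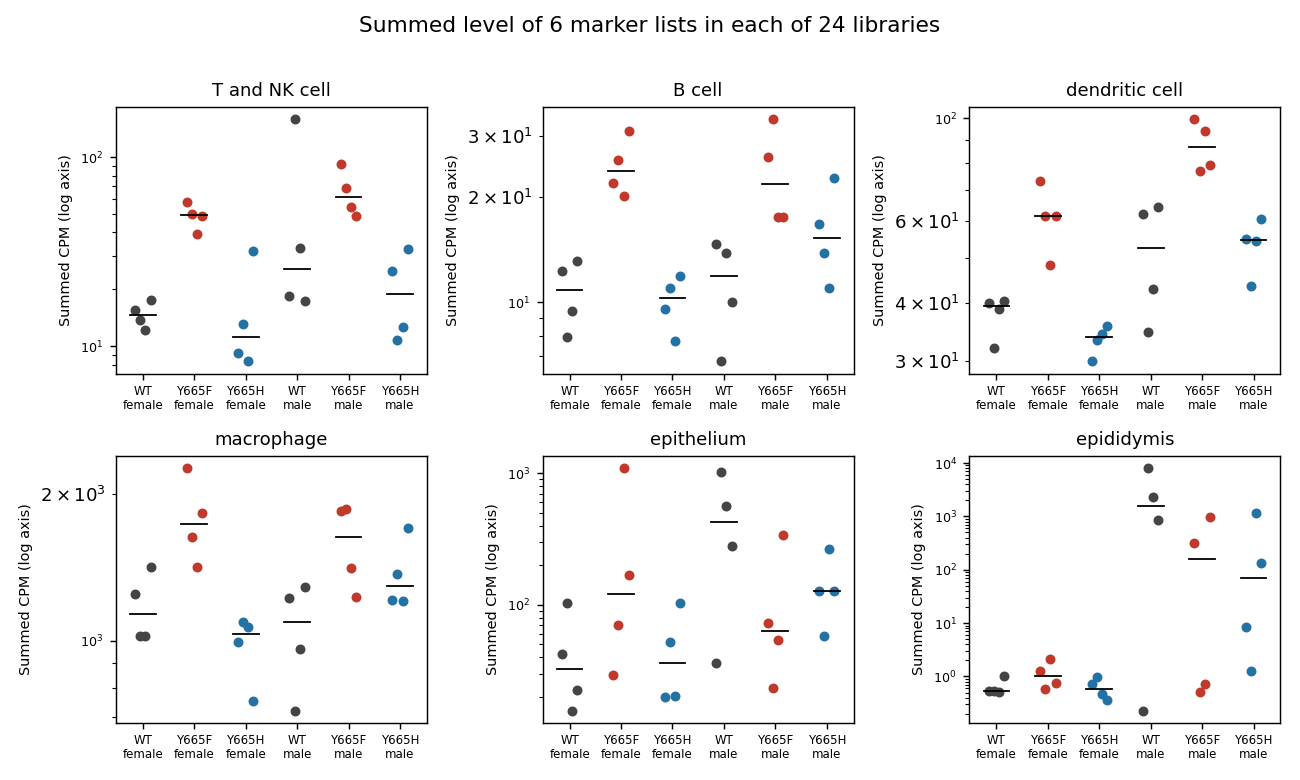
Summed CPM (log axes) of 6 marker lists in each of the 24 libraries (points), with the median of each group as a line. The T and NK cell, B cell, dendritic cell and macrophage sums of the Y665F females lie above those of all WT females, and the epididymis sum of the males runs from 0.23 to 8007 CPM.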

How the data were processed

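Each of the 24 libraries came with deposited read counts per gene symbol, whole numbers that are not normalized. Per the submitters' processing notes the tools were FastQC 0.11.9, Trimmomatic 0.36, STAR, SAMtools 1.9, Picard 2.9.2 and HTSeq 0.9.1, with build mm10. The annotation used for counting, its strand setting and the version of STAR are not given in the sources used here. Entries that name no gene, 24.8% to 39.7% of a library, were kept out of totals and tests. Their share differed with genotype in females: 32.5% to 35.9% in Y665F, 27.9% to 30.3% in WT and 24.8% to 29.9% in Y665H. Y665F females also had fewer gene reads (27.3 to 33.8 M) than WT females (34.6 to 38.6 M). The part of these differences in the comparisons with Y665F females was not tested.

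CPM were computed from gene totals, and CPM per kb with exon-union lengths of GENCODE M21 (GRCm38). Pairs of groups were tested in R 4.3.3 with edgeR 4.0.16 (TMM scaling, default expression filter, quasi-likelihood F test) on their 8 libraries, and differences between sexes in a mutation's effect on 16. P-values were adjusted by Benjamini-Hochberg over all genes tested, at a threshold of 0.05. DESeq2 1.42.0 was an alternative. The edgeR scripts were tested on simulated data.

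Fold changes are given for called members (at most 10 per comparison) and for the 3 members with the smallest p where fewer than 3 were called. Other members with a fold change (such as Ccl22, Ccr7, Cxcr4 or Cxcl16 against WT) were named after their values were seen. Members, lists and tests were chosen with earlier results of these data known. The 2 symbols left out are not reported here, nor is 1 member that enters the counts only. Dixon's test looked for outlying libraries.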

Additional observations from a re-analysis of the deposited data

Results flagged for a closer look

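Among 186 combinations of a member and a group (31 members with a mean of at least 1 CPM in 6 groups of 4), 14 held a library far from the other 3 by Dixon's criterion. Chance flags about 1 in 20 groups. In males, Cx3cl1 read 32.4 CPM in Y665F male 4 against 6.51 to 7.91 CPM in the rest of its group, and Cxcl14 read 22.7 CPM there against 5.43 to 8.2 CPM. Cx3cr1 read 8.66 CPM in Y665F male 4 against 5.05 to 5.2 CPM, and 13.6 CPM in WT male 2 against 3.19 to 4.49 CPM. These libraries held 960 and 8007 CPM of epididymis genes, the most in their groups, whose part in the values was not tested. Ccl5 was 2.96 CPM in WT male 3 (others 1.36 to 1.5 CPM), Cxcr4 14.5 CPM in WT male 1 (6.78 to 8.04 CPM), Ccr1 4.66 CPM in WT male 4 (2.97 to 3.22 CPM) and Ccl8 9.8 CPM in Y665H male 4 (1.9 to 3.2 CPM). In females, Y665F female 3, the library with the most epithelial RNA, had 85.2 CPM of Cxcl14 (others 12.7 to 21.4 CPM) and 4.64 CPM of Cx3cr1 (others 1.6 to 2.01 CPM). Ccr9 was 1.58 CPM in Y665F female 1 (others 1.09 to 1.17 CPM) and 3.52 CPM in Y665H female 4 (others 0.671 to 1.15 CPM). Ccl24 was 4.82 CPM in Y665H female 3 (others 3.38 to 3.44 CPM), and Cxcl9 15 CPM in WT female 2 (others 13.7 to 13.9 CPM).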

How the results depend on the processing

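In the comparison of Y665H with Y665F females the count of 15 called members stayed between 11 and 15 when 1 library was left out and within 1.5 times under every other setting tried. For Y665F against WT females (8 called), DESeq2 called 13 members, a fit of all 24 libraries 4, and leaving out 1 library 2 to 7. For Y665H against WT females (4 called) these were 11, 0 and 0 to 6, for Y665H against Y665F males (1 called) 3, 3 and 0 to 2, and for WT males against WT females (4 called) 11, 10 and 1 to 11. For Y665F against WT males (0 called) DESeq2 called 9 and the fit of all libraries 8, and leaving out 1 library gave 0. For Y665H against WT males every setting gave 0. For the difference between sexes DESeq2 called 1 member for Y665F and 2 for Y665H, and leaving out 1 library gave 0 to 2 and 0 to 6. The highest of these came without WT male 1, when Ccl17 and Cxcl9 were called for Y665F and Ccl2, Ccl7, Ccl11, Ccr2, Cxcl9 and Cxcr4 for Y665H. The cause was not tested. Shares of all genes called were given above only for DESeq2 and for edgeR with all libraries of the groups compared. The other counts of this section have no such share beside them.

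With the replicate number as a block, 5 members were called for Y665F against WT females, 0 for Y665H against WT females, 0 for Y665H against Y665F males and 1 between the WT sexes. The 24 correlations of same-numbered libraries ran from -0.38 to 0.72, and in each comparison 1 to 3 of 8 libraries correlated best with their own number. Pairing by number was thus not seen, but 4 libraries per group are too few for this check to exclude it.

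The use of library totals in place of TMM, and of TMM-scaled CPM for counts of non-overlap, was chosen after seeing the data. All counts of non-overlap given above use CPM from gene totals, without TMM scaling. Of 788 alternative values of the 53 fold changes, 656 kept their direction and side of the threshold, 106 no longer passed, 25 newly passed and 1 changed sign: Ccl17 in Y665F against WT males, -0.25 with all libraries, 0.27 without WT male 3 and as low as -0.46 without WT male 2. Members with few reads, such as Ccr4 and Ccl17, have the least precise values.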
